A study of Homo sapiens with 25 samples.

Results

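This comparison set MC_2580, which blocks LSD1 (KDM1A), a demethylase of histone H3, directly beside retinoic acid (RA) at 1 µM in NB4 cells. Peaks of H3K4me1, H3K4me2, H3K4me3 and H3K27ac were asked for one thing: were they called with MC_2580 only, with RA only, or with both agents? The members were the 8 libraries of these 4 marks under these 2 agents, of 25 samples in the series, and they hold 335072 of its 918839 peaks. Within each mark, peaks of both lists that overlapped by at least 1 base were merged, which gave 62854 regions for H3K4me1, 53579 for H3K4me2, 32014 for H3K4me3 and 40842 for H3K27ac. Each region was then sorted by whether it overlapped a peak of LSD1 in DMSO-treated cells and a peak of GFI1 in untreated cells.

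NB4 is a long-established human line from acute promyelocytic leukemia that carries the PML-RARA fusion, and its promyelocytes mature towards granulocytes when given RA. LSD1 removes methyl groups from H3K4me1 and H3K4me2 and does not act on H3K4me3. GFI1 is a DNA-binding repressor of myeloid cells that brings LSD1 and its CoREST partners to enhancers and promoters. H3K4me1 marks enhancers whether active or not, H3K4me2 marks enhancers and promoters, H3K4me3 lies mainly at active promoters, and H3K27ac marks active enhancers and promoters.

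Cells were treated for 24 h. The 2 groups compared were MC_2580, whose dose the labels do not state, and RA at 1 µM, and for description the regions were looked up in the DMSO control, in RA at 0.01 µM and in MC_2580 combined with RA at 0.01 µM. Every group is 1 library from the same cell line, so no test between conditions was possible, and the intervals given (95%, exact binomial for shares, normal for log2 ratios and differences) cover counting error only. Regions are not replicates. For H3K4me3 the combination sample has RA at 1 µM in its title and 0.01 µM in the treatment field that was followed here, and a wrong dose would change what its H3K4me3 values mean. Positions are on hg18, for which no gene annotation or genome was used here, so regions are given by position without gene names.

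List length differed between the agents. H3K4me1 had 54181 peaks with MC_2580 and 64642 with RA at 1 µM, H3K4me2 had 50736 and 46010, H3K4me3 had 29872 and 26271, and H3K27ac had 24552 and 38808. Bases covered were 200.8 and 179.0 Mb for H3K4me1, 59.6 and 52.2 Mb for H3K4me2, 100.6 and 85.3 Mb for H3K4me3, and 95.3 and 142.5 Mb for H3K27ac. Read depth is unknown, and a longer list cannot be told apart from a deeper or cleaner library. A balance over all regions of a mark therefore carries this difference in length, while a difference in balance between classes of region within a mark carries it only as far as it is unequal between the classes.

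H3K27ac separated the agents most. Of the 40842 H3K27ac regions, 18184 (44.5%) were called with RA only, 3557 (8.71%) with MC_2580 only and 19101 (46.8%) with both, a log2 ratio of MC_2580-only to RA-only regions of -2.35 (-2.41 to -2.30). The 3 methylation marks overlapped more. In H3K4me1, 45896 regions (73.0%) were called with both agents, 6341 (10.1%) with MC_2580 only and 10617 (16.9%) with RA only, a log2 ratio of -0.74 (-0.79 to -0.70). In H3K4me2 the balance lay on the other side, with 13012 regions (24.3%) for MC_2580 only, 7579 (14.1%) for RA only and 32988 (61.6%) for both (0.78, 0.74 to 0.82). H3K4me3 had the same direction as H3K4me2, with 6795 regions (21.2%) for MC_2580 only, 2616 (8.17%) for RA only and 22603 (70.6%) for both (1.38, 1.31 to 1.44). When the longer list was cut to its highest-scoring peaks so that both had equal length, these ratios became -0.26 for H3K27ac, 0.18 for H3K4me2 and 0.26 for H3K4me3, and that of H3K4me1 turned to 0.87.

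**Figure D1:**
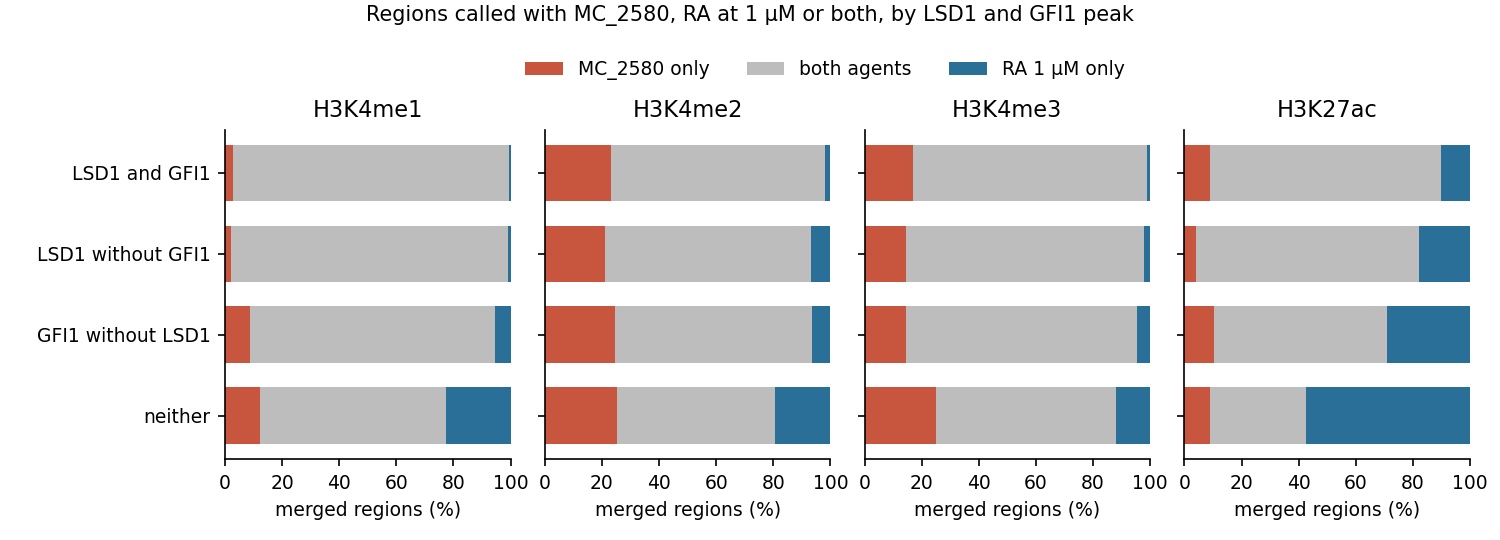
Share of merged regions (%) called with MC_2580 only, both agents or RA at 1 µM only, in each mark and by overlap with an LSD1 peak of DMSO-treated cells and a GFI1 peak. The RA-only share falls from 57.3% of H3K27ac regions with neither factor to 10.0% of those with both, while the MC_2580-only share is 9.05% and 8.77%.

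Regions with both LSD1 and GFI1 leaned towards MC_2580 in every mark when set beside regions with neither, and the lean came mainly from a scarcity of RA-only regions. For H3K4me2, 134 of 7515 regions with LSD1 and GFI1 (1.78%) were called with RA only, against 6673 of 34199 regions with neither (19.5%). The MC_2580-only shares of the same classes were close, at 1737 regions (23.1%) and 8625 regions (25.2%). The log2 ratio was thus 3.70 (3.44 to 3.95) at LSD1 and GFI1 and 0.37 (0.32 to 0.42) at neither, a difference of 3.33 (3.07 to 3.58). Between these lay LSD1 without GFI1, with 1500 MC_2580-only and 476 RA-only regions (1.66), and GFI1 without LSD1, with 1150 and 296 (1.96).

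The other methylation marks had the same order at the ends. H3K4me3 had 976 MC_2580-only regions (16.9%) and 66 RA-only regions (1.14%) among 5788 with LSD1 and GFI1, against 4804 (24.9%) and 2318 (12%) among 19292 with neither, so that the log2 ratios were 3.89 and 1.05 and their difference 2.83 (2.47 to 3.20). LSD1 without GFI1 had a ratio of 2.74 and GFI1 without LSD1 of 1.68. H3K4me1, which was called with both agents at 96.7% of the 6975 regions with LSD1 and GFI1, had 192 MC_2580-only regions (2.75%) and 37 RA-only regions (0.53%) there. Among 44810 H3K4me1 regions with neither factor, 5502 (12.3%) and 10178 (22.7%) were called with 1 agent, a log2 ratio of -0.89 against 2.38 with both factors and a difference of 3.26 (2.75 to 3.77).

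With the lists as deposited, LSD1 and GFI1 regions were the class of H3K27ac in which the agents lay nearest to balance. Of 5676 such regions, 498 (8.77%) were called with MC_2580 only and 569 (10.0%) with RA only, a log2 ratio of -0.19 (-0.37 to -0.02). With neither factor, 2501 of 27628 regions (9.05%) were called with MC_2580 only and 15831 (57.3%) with RA only (-2.66, -2.72 to -2.60), which made the difference 2.47 (2.29 to 2.65). LSD1 regions without GFI1 had 148 MC_2580-only regions (4.15%) and 632 RA-only regions (17.7%), a ratio of -2.09. LSD1 regions with GFI1 lay above LSD1 regions without it by 1.90 (1.59 to 2.21) in H3K27ac, 2.04 (1.75 to 2.33) in H3K4me2, 1.44 (0.72 to 2.15) in H3K4me1 and 1.15 (0.66 to 1.65) in H3K4me3.

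**Figure D2:**
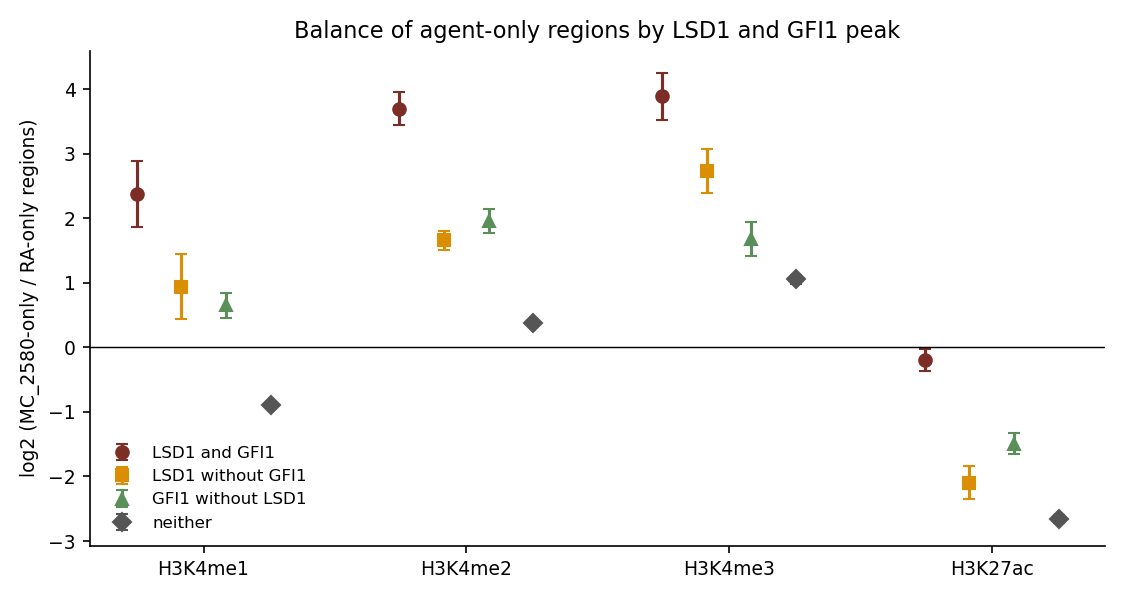
Log2 ratio of MC_2580-only to RA-only regions (vertical axis) in each mark, for 4 classes of region by LSD1 and GFI1 peak; points are the ratios of 1 library per agent and bars are 95% normal intervals for counting error. In each mark the class with LSD1 and GFI1 lies highest and the class with neither lowest, at 3.70 and 0.37 for H3K4me2 and at -0.19 and -2.66 for H3K27ac.

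The difference between LSD1 and GFI1 regions and regions with neither was above 0 on every chromosome where it could be computed: 18 of 18 in H3K4me1, 22 of 22 in H3K4me2, 21 of 21 in H3K4me3 and 23 of 23 in H3K27ac. Its medians over chromosomes were 2.86, 3.19, 2.98 and 2.69. Chromosomes are not replicates, since all come from the same libraries. The H3K4me1 values rest on 37 RA-only regions with both factors, 1 to 6 per chromosome. Regions with LSD1 and GFI1 were also more often called with both agents (75.1% in H3K4me2 and 81.2% in H3K27ac, against 55.3% and 33.6% with neither). Within strata of peak score and width, an alternative added after the data were seen, the difference was 3.18, 3.17, 2.48 and 2.71 in the 4 marks. The difference fell to 0.26 in H3K4me1, 1.8 in H3K4me2, 1.04 in H3K4me3 and 2.03 in H3K27ac when histone peaks were narrowed to 500 bases each way from the centre, and to 0.76, 0.83, 0.88 and 1.73 when a 50% reciprocal overlap was asked for.

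The difference between the classes kept its sign under these settings, but the ratio within a class did not always. With lists cut to equal length, regions with neither factor turned to MC_2580 in H3K4me1 (8528 MC_2580-only and 5118 RA-only) and to RA in H3K4me2 (6214 and 7563) and H3K4me3 (2773 and 3086). In H3K27ac the same setting gave 4101 and 5631 with neither factor and 779 and 377 with both, so that regions with both factors turned to MC_2580 and those with neither came closer to balance. H3K27ac regions with both factors also turned to MC_2580 with peaks narrowed about their centres (1087 and 929), with factor peaks near region centres (403 and 371) and with factor scores of at least 500 (81 and 31). H3K4me1 regions with both factors turned to RA at a 50% reciprocal overlap (1270 and 1506) and with narrowed peaks (711 and 1159).

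LSD1 peaks of DMSO-treated cells, 12562 sites, gave the same comparison with a fixed set of places. Sites with an H3K4me3 peak in DMSO are called promoter-type here (7742) and the rest distal-type (4820), by mark alone, without gene positions. In H3K4me2 and H3K4me3 the agents differed most, in percentage points, at distal-type sites with GFI1, 2637 in number. H3K4me2 was called at 47.8% of them in DMSO, 71.8% with MC_2580, 39.2% at the low RA dose, 41.9% at the high one and 64.2% in the combination. MC_2580 thus lay above DMSO and both RA doses below it, and 839 sites had H3K4me2 with MC_2580 only against 50 with RA at 1 µM only.

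H3K4me3, absent in DMSO at distal-type sites by definition, was called at 49.1% of those with GFI1 with MC_2580, 23.1% at the low RA dose, 18.4% at the high one and 37.7% in the combination. Here 874 sites had it with MC_2580 only and 65 with RA at 1 µM only. H3K4me1 was near its ceiling, at 90.7% in DMSO, 95.4% with MC_2580, 85.4% with the low and 88.2% with the high RA dose, and 96.7% in the combination. H3K27ac differed little between the single agents at these sites, at 52.4% in DMSO, 53.5% with MC_2580, 46.7% with the low and 50.9% with the high RA dose, and 67.5% in the combination. The MC_2580-only and RA-only numbers for H3K27ac were 428 and 359, so similar totals covered partly different sites.

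At the 2183 distal-type LSD1 sites without GFI1, H3K27ac went the other way. It was called at 69.0% of them in DMSO, 55.6% with MC_2580, 74.3% with the low and 70.9% with the high RA dose, and 74.0% in the combination. MC_2580 minus RA at 1 µM was -15.3 percentage points (-17.3 to -13.2), against 2.62 points (0.53 to 4.70) at distal-type sites with GFI1. The H3K4me2 difference was 12.2 points without GFI1 and 29.9 with it, and the H3K4me3 difference 16.7 and 30.7. Promoter-type sites were marked nearly throughout: H3K4me2 was called at 98.8% with MC_2580 and 94.8% with RA at 1 µM, H3K4me3 at 99.7% and 96.3%, and H3K27ac at 86.1% and 91.0%. As a log2 ratio of MC_2580-only to RA-only sites the order was another. In H3K4me2 the ratio was 5.02 at promoter-type sites with GFI1, 4.95 at those without it and 4.07 at distal-type sites with GFI1, and in H3K4me3 it was 4.39, 6.69 and 3.75. The promoter-type ratios rest on 1 to 8 RA-only sites each.

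**Figure D3:**
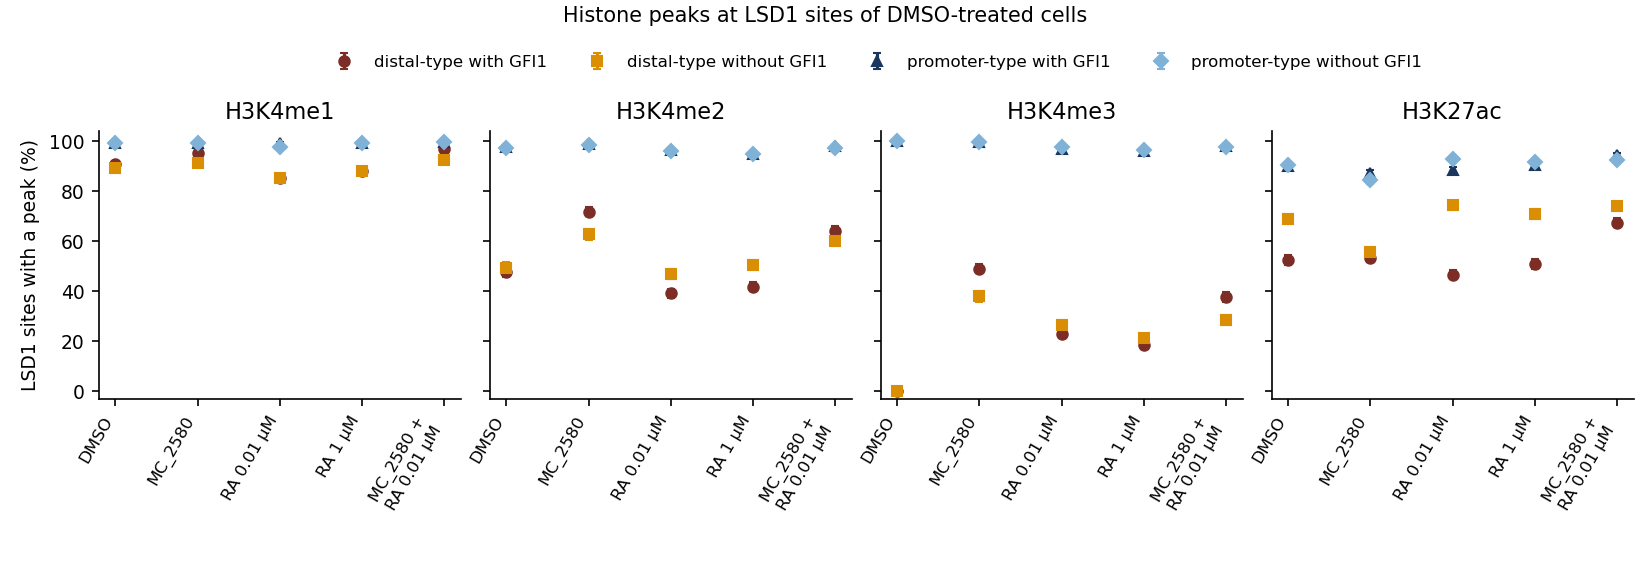
Share of LSD1 sites of DMSO-treated cells (%) with a peak of each mark in the 5 conditions, 1 library each, for distal-type and promoter-type sites with and without a GFI1 peak; bars are 95% exact binomial intervals. At distal-type sites with GFI1, H3K4me2 stands at 71.8% with MC_2580 and 41.9% with RA at 1 µM, while H3K27ac without GFI1 stands at 55.6% and 70.9%.

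In H3K4me2 and H3K4me3 the gap between the agents at distal-type sites was wider in each higher group of LSD1 peak score. When all LSD1 sites were split into 4 groups by score, the distal-type sites of each group, from the lowest-scoring to the highest, had H3K4me2 differences (MC_2580 minus RA at 1 µM) of 15.5, 19.6, 25.4 and 29.9 percentage points. H3K4me3 differences in the same order were 15.6, 18.6, 27.7 and 40.2 points. H3K4me1 differences had no steady order, at 6.04, 4.06, 3.70 and 7.75 points. For H3K27ac the difference passed from -11.9 and -9.40 over -3.70 to 6.46 points (3.09 to 9.83). Distal-type sites with weak LSD1 peaks thus had H3K27ac more often with RA, and those of the highest-scoring group more often with MC_2580. Over all LSD1 sites of the highest-scoring group the difference was 1.21 points (-0.26 to 2.68).

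Marks called with 1 agent fell partly on the same distal-type sites. Of the 839 sites with GFI1 and H3K4me2 from MC_2580 only, 362 (43.1%) also had H3K4me3 and 214 (25.5%) H3K27ac from MC_2580 only, while 778 (92.7%) had H3K4me1 with both agents. These sites differed in H3K4me2 by selection and mostly carried the enhancer mark H3K4me1 under either agent, as did most of all 2637 sites. Seen from H3K27ac, 214 of the 428 MC_2580-only sites (50.0%) had H3K4me2 and 233 (54.4%) had H3K4me3 from MC_2580 only. Of the 359 RA-only H3K27ac sites, 11 (3.06%) had H3K4me2 and 16 (4.46%) H3K4me3 from RA only, 190 (52.9%) had H3K4me2 and 340 (94.7%) H3K4me1 with both agents. The shares are to be read against those over all 2637 sites, of which 31.8% had H3K4me2 and 33.1% H3K4me3 from MC_2580 only, and 1.90% and 2.46% from RA only. H3K27ac from MC_2580 only was found at 16.2% of them. With both agents, 2313 of the 2637 had H3K4me1 and 1054 had H3K4me2.

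Agent-only regions were next looked up in the DMSO control and the other 2 conditions. Of the MC_2580-only regions with LSD1 and GFI1, 42.7% of H3K4me1, 44.8% of H3K4me2, 15.6% of H3K4me3 and 51.4% of H3K27ac had a peak in DMSO, where the H3K4me3 list is the shortest of its mark at 21688 peaks. RA at 0.01 µM had a peak at 13.5%, 24.2%, 21.5% and 24.3% of them. The combination had one at 93.8%, 64.9%, 55.4% and 70.5%, above the 65.1%, 37.9%, 25.4% and 36.4% at MC_2580-only regions with neither factor. H3K4me1, H3K4me2 and H3K27ac of this class were thus called more often in DMSO than at the low RA dose, and H3K4me3 less often.

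Most RA-only regions had neither factor, and most of those were absent from DMSO. Of the RA-only regions with neither factor, 33.8% of H3K4me1, 16.6% of H3K4me2, 5.39% of H3K4me3 and 32.0% of H3K27ac had a DMSO peak. RA at 0.01 µM had one at 50.6%, 32.1%, 57.0% and 66.6%, and the combination at 74.7%, 49.7%, 32.7% and 59.8%. RA-only regions with LSD1 and GFI1 had a DMSO peak more often, at 64.9% of 37 H3K4me1, 32.1% of 134 H3K4me2, 10.6% of 66 H3K4me3 and 61.5% of 569 H3K27ac regions. In H3K4me1 and H3K27ac these shares lay above those of the MC_2580-only regions of that class, and in H3K4me2 and H3K4me3 below. The H3K27ac list of RA at 0.01 µM is the longest of that mark, at 55793 peaks. Regions called with a single agent and in none of the other 3 conditions made up 17.5% of MC_2580-only and 15.3% of RA-only H3K27ac regions, and 47.0% and 33.8% in H3K4me3.

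**Figure D4:**
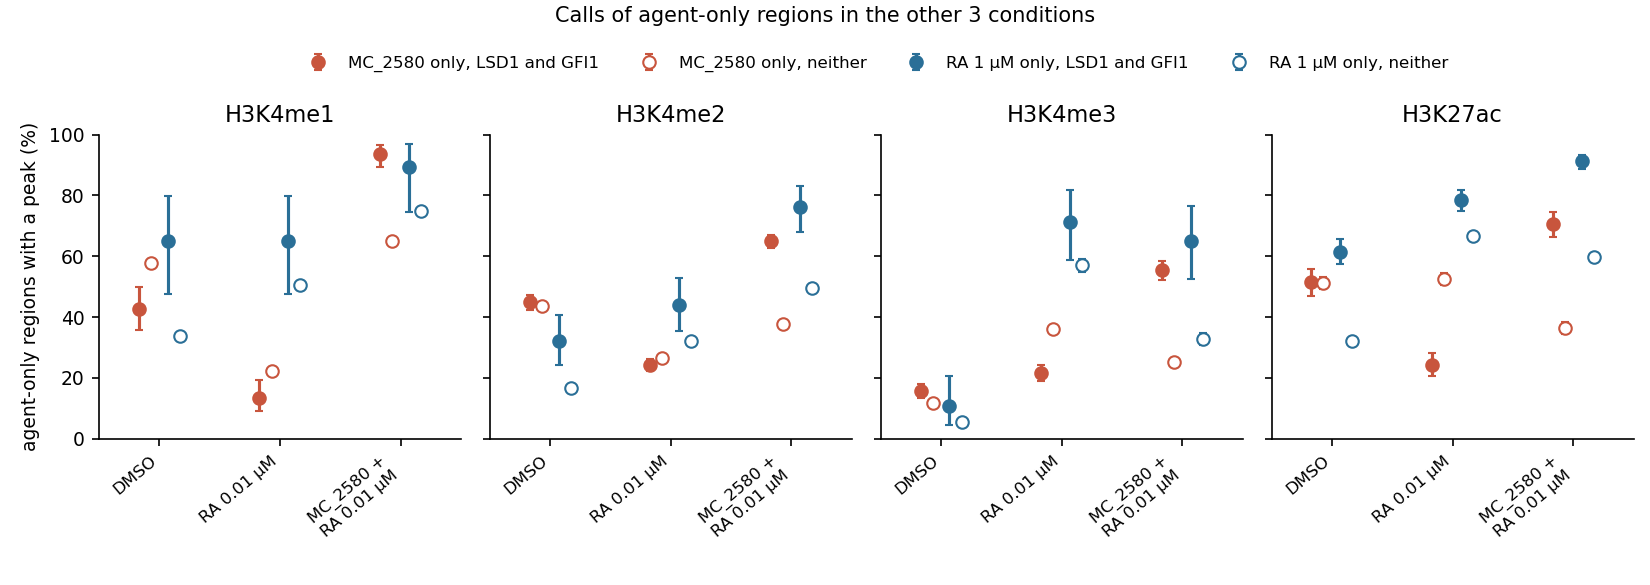
Share of agent-only regions (%) with a peak of the same mark in DMSO, RA at 0.01 µM and the combination, 1 library each, for regions with LSD1 and GFI1 (filled) and with neither (open); bars are 95% exact binomial intervals. MC_2580-only H3K27ac regions with LSD1 and GFI1 are called at 24.3% in RA at 0.01 µM and 70.5% in the combination.

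Among regions with LSD1 and GFI1, H3K27ac regions of the 2 agents lay on different methylation backgrounds. The 498 MC_2580-only H3K27ac regions with LSD1 and GFI1 overlapped an H3K4me2 peak at 59.6% in DMSO, 84.9% after MC_2580 and 43.4% after RA at 1 µM, and an H3K4me3 peak at 32.1%, 75.9% and 29.3%. At the 569 RA-only H3K27ac regions of that class, H3K4me2 was present at 78.9%, 88.9% and 79.1%, and H3K4me3 at 51.0%, 72.2% and 60.5%. In this class H3K4me2 and H3K4me3 were thus called more often with MC_2580 than with RA where H3K27ac was called with RA only. Over all 18184 RA-only H3K27ac regions that was not so: H3K4me2 was present at 25.6% after MC_2580 and 27.2% after RA, and H3K4me3 at 19.7% and 20.3%. There H3K4me1 was present at 58.0% in DMSO, 56.4% after MC_2580 and 65.0% after RA, and 53.4% had it with both agents, as did 97.9% of those with LSD1 and GFI1.

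When the 8 lists were merged together, 72871 regions resulted, and in 31153 of them (42.8%) no mark was called with 1 agent only. At least 2 marks fell to MC_2580 only, with none to RA only, in 1781 regions (2.44%), and at least 2 to RA only, with none to MC_2580 only, in 3129 (4.29%). With LSD1 and GFI1 the order was the reverse. Of 6625 merged regions with both factors, 506 (7.64%) had at least 2 marks with MC_2580 only and 19 (0.29%) with RA only, against 859 (1.53%) and 2885 (5.13%) of 56194 regions with neither. At least 3 marks fell to MC_2580 in 130 regions with both factors and to RA in 0 of the 6625, which allows a share of up to 0.0557% (exact binomial).

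Regions bare of all 4 marks under the other agent were rarer. All 4 marks with MC_2580 and none with RA at 1 µM were found in 9 regions, and the reverse in 10. For 3 marks the numbers were 57 and 245, and for 2 marks 479 and 1768. Of the MC_2580 regions with at least 2 marks, 65 of 545 had LSD1 and GFI1, and of the RA regions 3 of 2023. As a share of merged regions, the MC_2580 pattern was found at 0.98% of those with both factors, 1.32% of those with GFI1 without LSD1 and 0.75% of all, and the RA pattern at 0.045%, 1.14% and 2.78%.

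**Figure D5:**
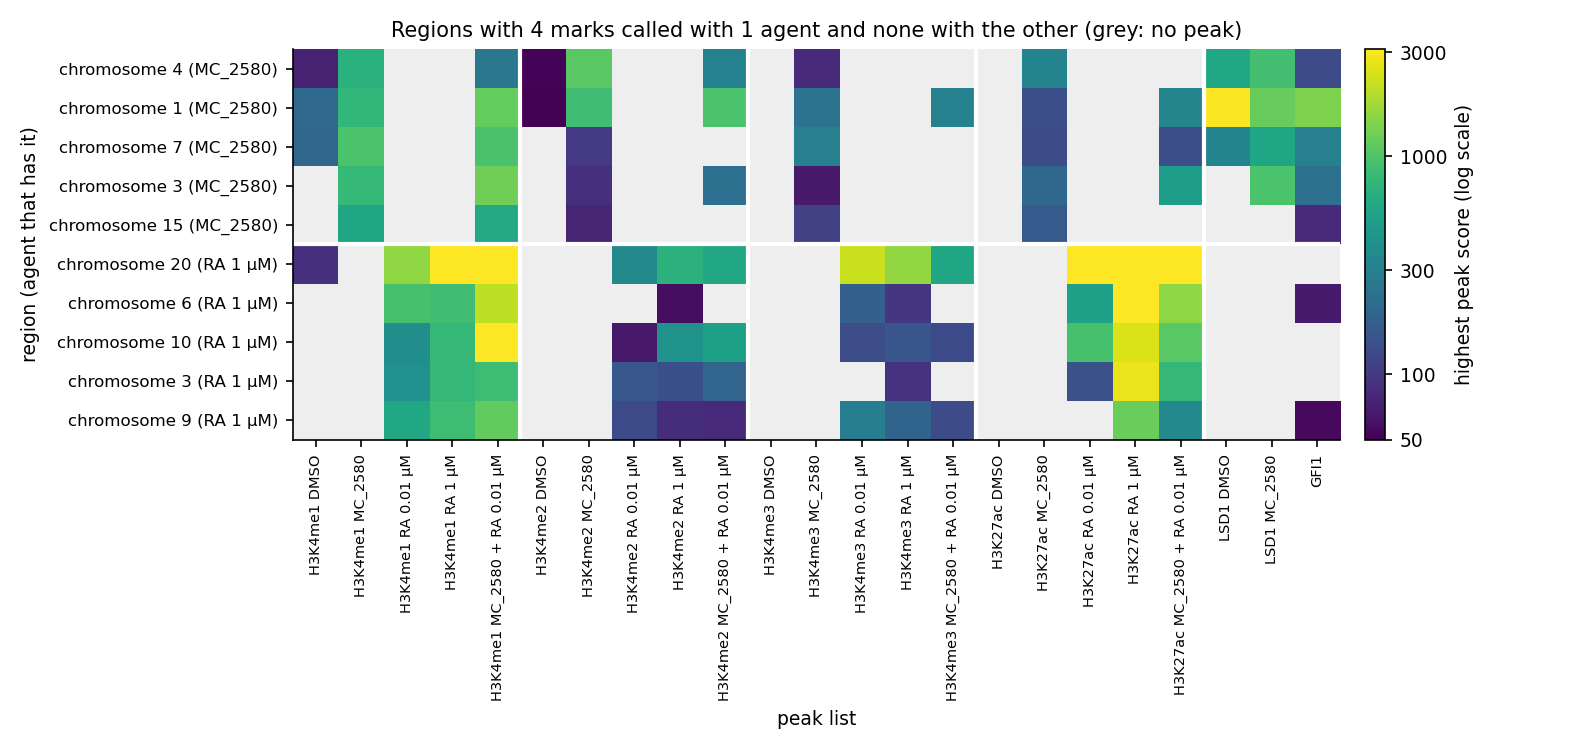
Highest peak score (colour, log scale; grey is no peak) in every histone, LSD1 and GFI1 list for the 5 regions per agent with 4 marks called with that agent and none with the other, 1 library per column. All 5 MC_2580 regions carry a GFI1 peak and 4 of them an LSD1 peak with MC_2580. None of the 5 RA regions has an LSD1 peak, and those on chromosomes 6 and 9 have a weak GFI1 peak (66.9 and 55.2). Of all 72871 merged regions, 56194 have neither a GFI1 peak nor an LSD1 peak of DMSO-treated cells. The LSD1 list with MC_2580 is longer, at 18822 peaks against 12562 in DMSO, and its share over all merged regions is not given.

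The region chr6:37028976-37032801 had H3K4me3 and H3K27ac with MC_2580 and not with RA at 1 µM, and H3K4me1 and H3K4me2 with both agents. It was the highest-scoring H3K4me3 region with MC_2580 only and carried strong LSD1 (score 3100 in DMSO and 2619 with MC_2580) and GFI1 (3028) peaks. The score is the authors' value for each peak, from 50 up to a pile-up at 3100. Its scale is not labelled, and it was read from its range and the peak names as -10 times log10 of p. H3K4me3 was called with MC_2580 (2914) and in the combination (3100) and in none of the other 3 conditions. H3K4me2 scored 3009 with MC_2580, 119 with RA at 1 µM and 3100 in the combination, and was not called in DMSO or with RA at 0.01 µM. H3K4me1 was called throughout, at 593 in DMSO, 2786 with MC_2580, 156 at the low and 254 at the high RA dose, and 3100 in the combination. H3K27ac scored 1135 with MC_2580, 53.2 with RA at 0.01 µM and 1938 in the combination, and was not called in DMSO or with RA at 1 µM.

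Of the 9 regions with 4 marks under MC_2580 and none under RA at 1 µM, 6 had LSD1 and GFI1 and 3 GFI1 without LSD1 in DMSO. Of all 72871 merged regions, 6625 and 6500 fell in these classes. Among the 5 of highest summed score, chr1:243744484-243748263 had the strongest factor peaks, with LSD1 at 3046 in DMSO and 1190 with MC_2580 and GFI1 at 1403. With MC_2580 it scored 770 for H3K4me1, 873 for H3K4me2, 240 for H3K4me3 and 136 for H3K27ac. In DMSO it had H3K4me1 at 205 and H3K4me2 at 50.4, and in the combination all 4 marks, at 1176, 963, 308 and 329. The region therefore had weak methylation in DMSO, 4 marks with the inhibitor alone or combined, and none with RA at either dose. On chr4:6329464-6335981, with LSD1 at 588 in DMSO and GFI1 at 128, H3K27ac was called with MC_2580 alone (320) and in no other condition. Regions on chr7:69278928-69283605, chr3:12764769-12768278 and chr15:36294739-36298740 completed the 5. The last had no LSD1 peak in either condition and a GFI1 peak of 83.3.

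Another MC_2580 region had H3K4me2 as its strong mark. On chr22:41122640-41123358, a stretch of 719 bases with LSD1 at 3100 in DMSO and GFI1 at 2626, H3K4me2 scored 2877 with MC_2580 and 1516 in the combination and was not called in DMSO or with either RA dose. H3K4me3 had no peak there in any condition. H3K4me1 scored 126 in DMSO, 1517 with MC_2580, 96.1 with RA at 1 µM and 2493 in the combination.

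Both MC_2580-only H3K27ac peaks that ranked highest were also called in DMSO. On chr21:38759595-38776162, 16568 bases wide, H3K27ac scored 2069 in DMSO, 3100 with MC_2580 and 353 in the combination, with no peak at either RA dose. On chr17:35919299-35933325 it scored 3100 in DMSO and with MC_2580, 166 with RA at 0.01 µM and 560 in the combination. The H3K4me3 region chr14:90762605-90769241 (268 in DMSO, 2707 with MC_2580, 56.5 with RA at 0.01 µM, 379 in the combination) had H3K27ac of 3100 in DMSO and with MC_2580 and none with either RA dose. All 3 regions carried LSD1 and GFI1, and in all 3 H3K27ac was called in DMSO and with MC_2580 but not with RA at 1 µM.

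Of the 10 regions with 4 marks under RA at 1 µM and none under MC_2580, 2 had a GFI1 peak and none an LSD1 peak of DMSO-treated cells. Both GFI1 peaks were weak (55.2 and 66.9) and lay among the 5 regions of highest summed score. Of all 72871 merged regions, 56194 had neither factor, and 10 regions are too few to be told apart from that share. The region chr20:17766607-17779947 had no LSD1 or GFI1 peak, and no mark with MC_2580. H3K27ac scored 3100 with both RA doses and in the combination, and had no peak in DMSO. H3K4me1 scored 86.9 in DMSO, 1561 at the low RA dose, 3100 at the high one, and 3100 in the combination, while H3K4me3 scored 2215, 1576 and 566 and H3K4me2 350, 709 and 595 in these 3. The 4 marks were therefore found with any RA, and DMSO had H3K4me1 alone. The regions chr6:119672758-119679478, chr10:125819513-125828195, chr3:40241026-40252691 and chr9:27689505-27694010 had no peak of any mark in DMSO or with MC_2580, and their H3K27ac scores with RA at 1 µM were 3100, 2503, 2755 and 1208. RA at 0.01 µM had H3K27ac scores of 528, 929 and 139 in the first 3 of these and no peak on chromosome 9.

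In other RA-only regions, marks called with RA and not with MC_2580 lay where H3K4me1 was called in DMSO and with both agents. At chr20:48326229-48329397, with LSD1 at 870 in DMSO and no GFI1, H3K4me1 scored 2279 with MC_2580 and at least 3100 in the other 4 conditions, while H3K4me2 was called at the low RA dose (1551), the high one (3100) and in the combination (2421) and not in DMSO or with MC_2580. H3K4me3 followed the same 3 conditions, at 1556, 2306 and 522, and H3K27ac scored 71.6 in DMSO, none with MC_2580 and 3100 in those 3. At chr1:199143011-199149404, which has LSD1 (439) and a weak GFI1 peak (78.0), H3K4me3 was 0 in DMSO and with MC_2580 and 3100 with both RA doses. H3K4me1 there scored 1538 in DMSO and 531 with MC_2580. H3K4me2 had no peak in DMSO and scored 92.6 with MC_2580. H3K27ac there scored 1029 in DMSO, had no peak with MC_2580 and reached 3100 with both RA doses and in the combination.

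The widest RA-only H3K27ac peak ranked at the top score ran over 82729 bases on chr10:73106005-73188733. It scored 3100 with both RA doses and in the combination, 166 in DMSO, and had no H3K27ac peak with MC_2580, although H3K4me1 and H3K4me2 reached 3100 there with MC_2580. LSD1 scored 1123 in DMSO and 3052 with MC_2580, and GFI1 498. The next, 55679 bases on chr19:8439281-8494959, had an LSD1 peak of 3100 in both conditions, H3K27ac of 1962 in DMSO and again none with MC_2580. In all, 165 of 18184 RA-only and 7 of 3557 MC_2580-only H3K27ac peaks reached 3100. Of the whole H3K27ac lists, 13.5% of peaks with RA at 1 µM and 5.38% with MC_2580 reached at least that score. In the methylation marks, 2 H3K4me1, 3 H3K4me2 and 9 H3K4me3 peaks with RA only reached 3100, while the MC_2580-only peaks did not.

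Agent-only regions were otherwise weak. Median scores were 70.4 to 102 for agent-only peaks over the 8 lists and 288 to 1303 for peaks shared with the other agent. RA-only H3K27ac peaks had the highest median among the agent-only sets, 102, and 9277 of them (51.0%) scored at least 100, against 1197 (33.7%) of the MC_2580-only ones. Shared H3K27ac peaks also scored higher in the RA list, with a median of 990 against 295 in the MC_2580 list. Of these shared peaks, 89.6% in the RA list and 78.0% in the MC_2580 list scored at least 100. Like H3K27ac on chromosomes 10 and 19, some other strong marks lacked a peak in single lists. On chr6:42998050-43012264, H3K4me2, H3K4me3 and H3K27ac scored 3100 or above in all 5 conditions, and H3K4me1 scored 3100 in DMSO, 1908 after MC_2580 and 1672 at the low RA dose, with no peak at the high dose or in the combination. On chr16:83311903-83325364, H3K4me1 scored 2594 in DMSO, 2731 at the low RA dose, 3100 at the high one and 2926 in the combination, with no peak after MC_2580. Whether the signal itself was low in those lists, or a peak was lost in calling or filtering, was not tested in any of these 4 regions.

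Regions called with both agents differed in width. H3K4me1 covered more bases with MC_2580 in 80.6% of 45896 shared regions, with a median log2 ratio of bases of 0.23, and H3K4me3 in 72.0% (0.12). H3K4me2 was wider with MC_2580 in 75.8% of the regions with LSD1 and GFI1 (0.15) and in 56.5% of those with neither (0.04). H3K27ac leaned to RA, being wider with MC_2580 in 39.6% of shared regions (-0.08), and in 47.7% of those with LSD1 and GFI1 (-0.02).

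Some 100 kb windows gathered many agent-only peaks of a mark. H3K4me2 had 17 MC_2580-only peaks in chr2:113100001-113200000, where 31 peaks were called with MC_2580, 18 in DMSO and 13 with RA at 1 µM, beside 10 LSD1 and 23 GFI1 peaks. The densest RA-only H3K4me2 window, chr11:119000001-119100000, also had 17. It held 28 peaks with RA at 1 µM, 12 with MC_2580 and 11 in DMSO, beside 2 LSD1 and 5 GFI1 peaks. H3K27ac had 9 MC_2580-only peaks in chr22:48300001-48400000 (9 with MC_2580, 11 in DMSO, 2 with RA at 1 µM). Its RA-only maximum of 15, reached in 3 windows, is found for example in chr5:177700001-177800000 (18 with RA at 1 µM, 2 with MC_2580, 13 in DMSO). The H3K4me3 maximum for RA, 7 peaks in chr10:125700001-125800000, lies next to the RA region of 4 marks named above and had 8 H3K4me3 peaks with each RA dose and in the combination, 1 with MC_2580 and 0 in DMSO. The 8 MC_2580-only H3K4me3 peaks in chr7:62000001-62100000 stood by themselves, since 2 H3K4me3 peaks of the combination were the one other call there in any list. Factor peaks did not differ alike in every mark. Both named H3K27ac windows had 1 LSD1 peak of DMSO-treated cells and 2 GFI1 peaks. The H3K4me3 window for RA had 1 and 1, and that for MC_2580 had 0 and 0. The densest H3K4me1 windows had 2 and 8 for MC_2580, and 0 and 1 for RA. Factor counts over all windows are not given here.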

How the data were processed

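ChIP-seq peak lists of NB4 cells were used as deposited, 1 library per group, with groups set by the antibody and treatment fields of the labels. Per the submitters' processing notes, MACS 1.4.1 and Bowtie 1.0.1 were among the tools and hg18 was the build, beside CASAVA 1.8, FastQC (0.10.0, 0.11.5) and bcl2fastq 2, with no role or order named. The score is the deposited value the authors' caller gave each peak, starting at 50 in histone and GFI1 lists and piling up at 3100. It ranked and filtered peaks within a list. The LSD1 list of DMSO-treated cells kept 24.7% of its numbered peaks with a lowest score of 234, after a further filter that the sources used here do not give. Starts below 0 were set to 0, and 1 GFI1 peak on another chromosome was left out (29600 used). No blacklist of false-signal regions was applied, and depth is unknown.

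Lists were compared in Python 3.11.15 (SciPy 1.17.1, NumPy 2.4.6, figures in Matplotlib 3.10.9). Peaks of both agents overlapping by at least 1 base were merged, and merged regions were looked up in the other lists at the same overlap. Alternatives were a minimum score of 100, a one-sided threshold of 100, peaks within 1 kb joined, a 50% reciprocal overlap, lists of equal length, peaks narrowed to 500 bases each way from the centre, autosomes only, LSD1 and GFI1 scores of at least 500, and LSD1 and GFI1 within 500 bases of region centres. Added after seeing the data were strata of score and width (a Mantel-Haenszel odds ratio) and LSD1 peaks also called with MC_2580. The code was tested on simulated lists of 20000 regions, where 2500 planted MC_2580-only and 3500 RA-only regions were all recovered. Members, lists and rules were chosen with earlier results of these data known. Named regions were, per mark and agent, the 2 highest-scoring agent-only peaks (ties by width, then position) and the highest with LSD1 and GFI1, the 5 regions per agent with most marks, and the 100 kb window with most agent-only peaks; not every one is printed. Gene lists and markers written down for this work call for hg18 gene positions and stayed unused.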

Additional observations from a re-analysis of the deposited data

How the results depend on the processing

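The log2 ratio over all regions depended on list length and overlap rule, with 1 change of sign. With lists of equal length it was 0.87 (H3K4me1, reversed), 0.18 (H3K4me2), 0.26 (H3K4me3) and -0.26 (H3K27ac). In the same order of marks it was -0.87, 0.37, 0.80 and -1.43 at a 50% reciprocal overlap, -0.90, 0.58, 0.82 and -1.43 with peaks of 500 bases on either side of the centre, and -1.0, 0.90, 1.97 and -2.95 with a one-sided threshold of 100. A minimum score of 100 gave -0.66 (H3K4me1), 1.81 (H3K4me3) and -2.72 (H3K27ac), and joining within 1 kb gave -0.80 (H3K4me1), 0.65 (H3K4me2) and -2.22 (H3K27ac).

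The difference between regions with LSD1 and GFI1 and regions with neither was above 0 under all 11 alternatives in each mark. It was 0.76, 0.83, 0.88 and 1.73 at a 50% reciprocal overlap, and 0.26, 1.8, 1.04 and 2.03 with peaks of 500 bases on either side of the centre. With LSD1 and GFI1 scores of at least 500 it was 4.35, 3.89, 5.70 and 3.86, the H3K4me3 value resting on 1 RA-only region. The one-sided threshold gave 4.61 (H3K4me1), 3.93 (H3K4me2) and 3.39 (H3K27ac), joining within 1 kb 4.28 (H3K4me1) and 3.74 (H3K4me2), and centres within 500 bases 2.89 (H3K4me2) and 2.75 (H3K27ac). H3K27ac moved to 2.83 at a minimum score of 100, 1.5 with lists of equal length and 2.71 in strata of score and width, and H3K4me1 to 2.72 with LSD1 peaks also called with MC_2580. The cause of these shifts was not tested.

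No paired analysis was possible because each group has 1 library. Spread between cultures is therefore unknown. Read depth is unknown, so list length and occupancy cannot be told apart. The LSD1 lists start at scores of 234 (DMSO) and 357 (MC_2580), the others at 50.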

Other observations

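Among regions without an LSD1 peak, nearness to LSD1 differed most between the agents in H3K27ac, in percentage points, and next in H3K4me1. Of 2911 such MC_2580-only H3K27ac regions, 976 (33.5%, 31.8 to 35.3%) lay within 10 kb of an LSD1 peak of DMSO-treated cells, against 4190 of 16983 RA-only regions (24.7%, 24.0 to 25.3%) and 23% of those called with both agents. For H3K4me1 the shares were 21.5% (20.5 to 22.5%) with MC_2580 only and 16.7% (16.0 to 17.4%) with RA only. For H3K4me3 they were 17.6% and 17.3%. H3K4me2 went the other way, at 34.0% (33.0 to 34.9%) and 36.8% (35.6 to 37.9%).

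The agents also met in the same region through different marks. In 1280 of the 72871 merged regions at least 1 methylation mark was called with MC_2580 only while H3K27ac was called with RA only, and the reverse was found in 73. Of the 1280, 112 had LSD1 and GFI1 and 914 had neither factor, and of the 73 these numbers were 4 and 58. As a share of merged regions, the first pattern was found at 1.69% of those with both factors, 1.63% of those with neither and 1.76% of all. The reverse was found at 0.06%, 0.10% and 0.10%. The H3K27ac list of MC_2580 is the shortest of that mark, and its part in these numbers was not tested.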
